A study of Mus musculus with 24 samples.

Results

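Transcripts that are made mainly in the hepatocytes of the liver were measured in whole blood of mice. The set comprised 33 genes, chosen by name from a list of hepatocyte products that earlier results of these arrays had shown to be high in some blood samples, out of 24325 gene symbols with a probe. All 33 had a probe, 47 probes in all, and each gene is given by its brightest probe. Because the genes were chosen from these measurements, their high levels and their shared rise and fall are given below as a description, with no test.

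The arrays held blood RNA of 24 male 129S/J mice, 1 mouse per array, in 5 groups. Wild-type mice received sham exposure (0 Gy, n = 5), 6 Gy (n = 5) or 8.8 Gy (n = 4) of X rays, and Parp1-/- mice, which carry a null allele of the DNA repair enzyme gene Parp1, received 0 Gy (n = 5) or 6 Gy (n = 5). Blood was drawn by puncture of the heart at 24 h after exposure, and globin RNA was removed before labelling. The labels used here give no age, and they do not say which part of Parp1 is missing.

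Hepatocytes secrete most of the proteins of blood plasma, among them albumin, transport proteins, apolipoproteins, clotting factors and protease inhibitors, and they carry the enzymes of the urea cycle and of drug metabolism. The messenger RNAs of these proteins are abundant in the liver and low in the leukocytes, platelets and reticulocytes that supply the RNA of a blood sample. Many liver promoters are bound by hepatocyte nuclear factor 1 (HNF1), which recognises a palindrome whose arm is GTTAAT.

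RefSeq promoter windows were available for 26 of the 33 genes, and the arm GTTAAT was found on either strand in the 250 bases before the start of 8 of them (30.8%), against 7.49% of the windows of 27025 genes. The 8 genes were Alb, Gc, Fga, Fgb, Vtn, Serpina1a, Serpina1c and Fabp1. The whole HNF1 palindrome, both arms around any central base, was found in none of the 26 and in 3 of all genes. CCAAT stood in 12 of the 26 windows (46.2%, against 37.5% of all genes), and TATAAA in 7 (26.9%, against 14.3%). A match describes the letters of a window and says nothing of binding. The 4 windows below, of Alb, Fgb, Serpina1a and Serpina1c, were chosen from the 8 with the arm, among genes described below one by one. Ahsg, Apoa2, Apoh, Hpx, Itih4 and Tat are also described below, and their windows do not hold the arm and are not shown. They are RefSeq sequences of GRCm38.p6, 5′ to 3′ on the strand of the gene, with the arm in capitals, also where it lies on the opposite strand and reads ATTAAC. Alb lies on the plus strand at chr5:90460620-90460869, and the other windows lie on the minus strand, Fgb at chr3:83049864-83050113, Serpina1a at chr12:103863620-103863869 and Serpina1c at chr12:103904951-103905200.
Alb: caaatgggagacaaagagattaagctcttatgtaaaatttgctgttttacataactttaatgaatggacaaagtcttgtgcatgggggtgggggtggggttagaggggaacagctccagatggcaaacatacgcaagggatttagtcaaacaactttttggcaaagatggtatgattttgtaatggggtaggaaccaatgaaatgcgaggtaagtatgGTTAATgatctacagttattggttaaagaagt
Fgb: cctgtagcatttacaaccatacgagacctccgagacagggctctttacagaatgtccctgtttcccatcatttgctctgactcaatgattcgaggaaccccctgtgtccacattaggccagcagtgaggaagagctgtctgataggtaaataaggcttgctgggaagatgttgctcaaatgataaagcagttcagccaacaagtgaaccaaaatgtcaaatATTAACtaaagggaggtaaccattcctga
Serpina1a: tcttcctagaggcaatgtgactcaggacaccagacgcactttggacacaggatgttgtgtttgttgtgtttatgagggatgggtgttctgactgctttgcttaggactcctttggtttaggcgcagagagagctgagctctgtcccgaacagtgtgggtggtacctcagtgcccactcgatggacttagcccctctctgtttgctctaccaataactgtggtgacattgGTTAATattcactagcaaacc
Serpina1c: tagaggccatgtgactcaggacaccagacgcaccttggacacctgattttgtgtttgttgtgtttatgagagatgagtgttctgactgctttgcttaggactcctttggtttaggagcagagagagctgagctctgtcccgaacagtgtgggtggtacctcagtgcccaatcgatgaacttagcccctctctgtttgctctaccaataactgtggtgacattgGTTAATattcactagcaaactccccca
The arm in Alb, Serpina1a and Serpina1c reads forward and that of Fgb reads as its reverse complement. Each of the 4 windows holds it once, in the part nearest to the start of the gene. That each holds the arm follows from the choice of windows.

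Levels are log2 of the background-subtracted signal minus the 75th percentile of the same array, so that 0 is the signal of a probe at that percentile. Levels of different probes are not compared, because probes differ in brightness for the same amount of RNA. Between 36.6% and 57.8% of probes were well above background on an array, by the scanner's own test. Parp1 was well above background on 12 arrays, and its level was between -0.94 and -0.35 in the 5 wild-type sham samples and between -3.82 and -2.29 in the 5 Parp1-/- sham samples. The array labelled Parp1-/- 6 Gy replicate 1 gave -1.67, above the -5.01 to -3.45 of the other 4 arrays of its group. It was also nearly equal to wild-type 8.8 Gy replicate 2 over 10767 probes, with an SD of the log2 difference of 0.167, against 0.262 for the next closest pair and 0.901 for the median pair. The main differences, calls and counts that include these 2 arrays are also given without them. In bulk RNA, fewer cells of a type and less RNA per cell cannot be told apart.

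Alb, which encodes albumin and has 1 probe on the array, at chr5:90901598-90901657 of mm9, differed widely from mouse to mouse. Its level was 9.20, -3.94, 7.14, -4.53 and 8.57 in wild-type sham replicates 1 to 5. It was -0.58, -1.65, -1.46, 4.84 and 7.78 in the wild-type 6 Gy samples, and -2.23, 7.37, 8.47 and 8.35 in the wild-type 8.8 Gy samples. Each of these groups therefore held at least 1 sample above 7 and at least 1 below 0. In Parp1-/- mice Alb was at 8.38, -0.53, 2.52, -3.92 and -3.57 after sham exposure and at 7.31, -3.39, 8.18, 7.38 and -1.97 after 6 Gy. Alb was well above background on 17 of the 24 arrays. These were all 5 at wild-type 6 Gy and 3 in each of the other 4 groups. Over all groups, 11 samples lay below 0 (-4.53 to -0.53), 11 lay above 7 (7.14 to 9.20), and 2 lay between. Samples below 0 and above 7 numbered 2 and 3 in the wild-type sham group, 3 and 1 at 6 Gy, 1 and 3 at 8.8 Gy, 3 and 1 in the Parp1-/- sham group, and 2 and 3 at Parp1-/- 6 Gy. No group was on 1 side alone.

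**Figure D1:**
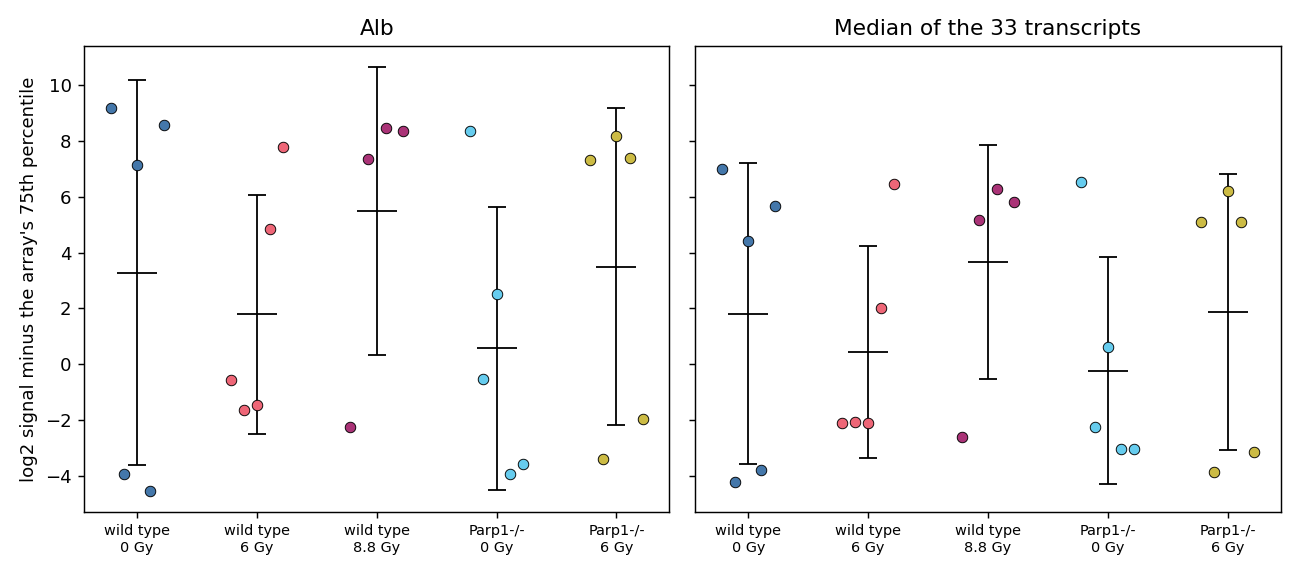
Level of Alb (left) and median level of the 33 hepatocyte transcripts (right) in each of 24 samples, by group, as log2 signal minus the array's 75th percentile. Points are samples, in replicate order, the long horizontal bar is the group mean and the whiskers are 1 SD; every group holds samples on both sides of 0, and Alb spans -4.53 to 9.20 within the wild-type sham group.

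The other 32 transcripts rose and fell with Alb. On the 11 arrays with Alb above 7, 32 or 33 of the 33 members were well above background, and on the 11 arrays with Alb below 0 between 6 and 21 were. The correlation of a member with Alb over the 24 arrays was between 0.812 and 0.997, with a median of 0.98. The points share the array and its scaling, and the genes were chosen for this pattern. Trf, Apoa2, Apoc1, Fgb, Tat and Cyp2e1 were well above background on all 24 arrays. A further 21 members were so on 9 to 15 arrays.

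**Figure D2:**
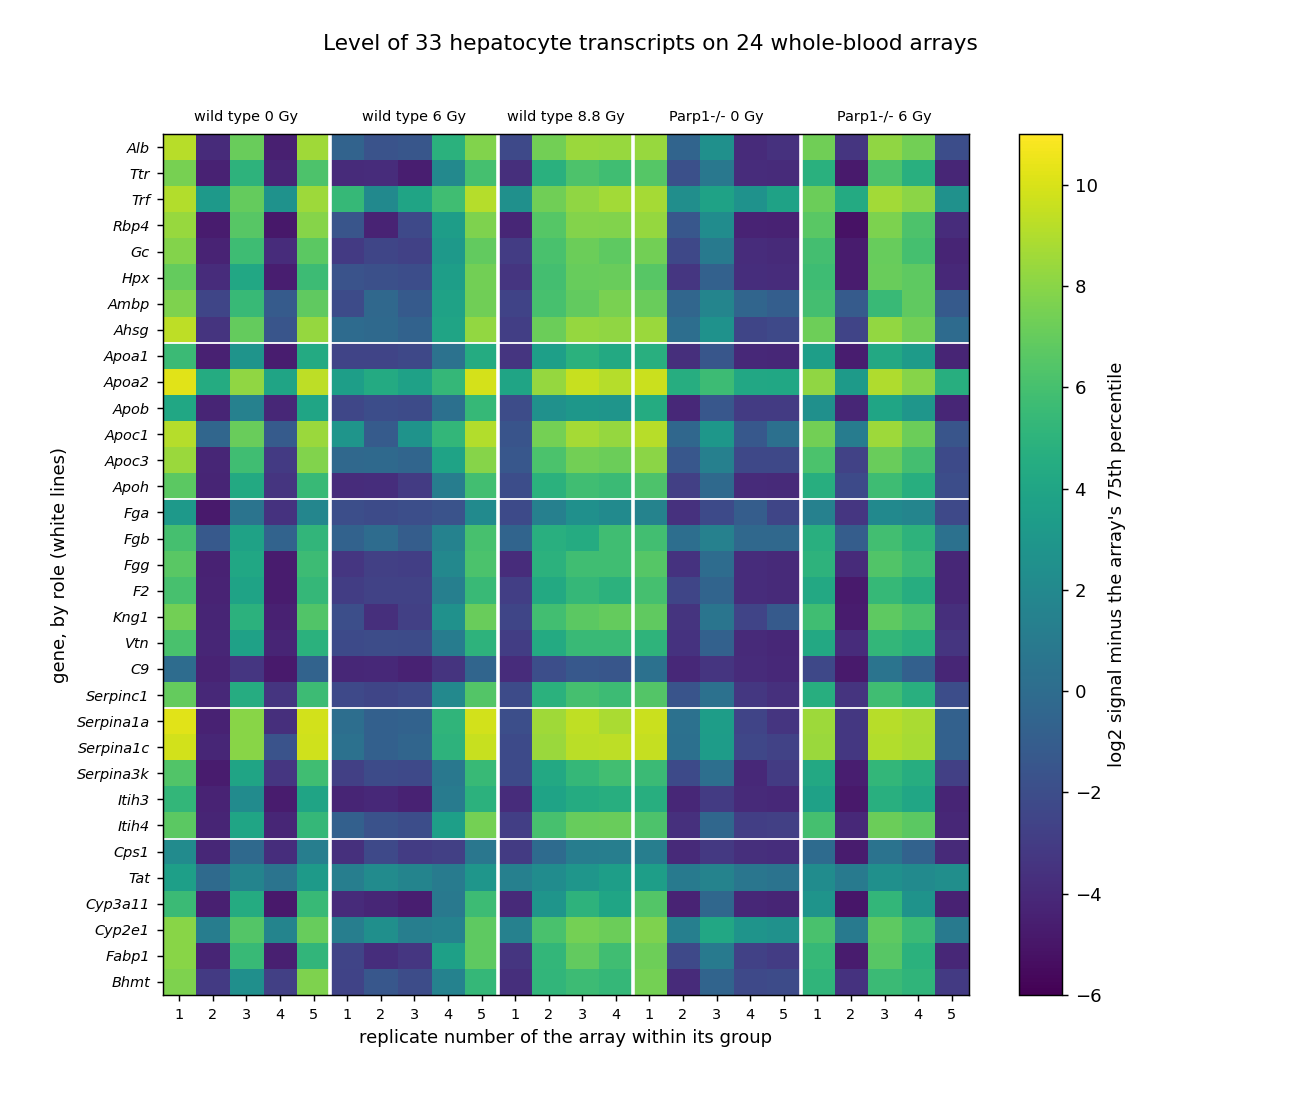
Heat map of the level of 33 hepatocyte transcripts (rows, in the order carriers, apolipoproteins, clotting and complement factors, protease inhibitors and enzymes) on 24 arrays (columns, by group), with colour giving log2 signal minus the array's 75th percentile. Whole columns are bright or dark: the 11 arrays with Alb above 7 have at least 32 members well above background.

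Among the carriers and transport proteins, Trf encodes transferrin, the iron carrier of plasma. Its level was 9.07, 3.20, 6.98, 2.69 and 8.52 in the wild-type sham samples, 5.38, 2.09, 3.94, 5.76 and 9.11 at 6 Gy, and 2.51, 7.29, 8.20 and 8.65 at 8.8 Gy. In Parp1-/- mice it was 8.72, 2.39, 3.79, 2.64 and 3.79 after sham exposure and 7.17, 4.42, 8.61, 8.07 and 2.58 after 6 Gy. Trf was thus high where Alb was high, and it kept a measurable level where Alb was below background. Ahsg, which encodes the calcium-binding plasma protein fetuin-A, was at 9.32, -3.43, 6.96, -1.54 and 8.28 in the wild-type sham samples. It was -0.05, -0.17, -0.63, 3.93 and 8.26 at 6 Gy, and -2.84, 7.20, 8.31 and 8.21 at 8.8 Gy. The Parp1-/- values of Ahsg were 8.42, 0.17, 2.68, -2.47 and -2.27 after sham exposure and 7.24, -2.52, 8.27, 7.38 and -0.07 after 6 Gy. The groups overlapped along nearly their whole ranges for both genes. The 8 carriers, which also include the thyroid hormone carrier Ttr, the retinol carrier Rbp4, the vitamin D carrier Gc, the haem carrier Hpx and Ambp, spanned 7.02 to 13.74 log2 units over the 24 arrays.

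Of the apolipoproteins, Apoa2 belongs to high-density lipoprotein and Apoc1 to several lipoprotein classes. Apoa2 was at 10.26, 4.46, 8.21, 3.96 and 9.32 in the wild-type sham group, at 3.52, 4.41, 3.70, 5.34 and 9.91 at 6 Gy and at 3.90, 8.31, 9.55 and 9.09 at 8.8 Gy. In the Parp1-/- groups it was at 9.62, 4.58, 5.63, 4.19 and 4.11 without and at 8.21, 3.27, 9.0, 7.88 and 4.68 with 6 Gy. Apoa2 did not fall below 3.27, whereas a dimmer probe of the same gene reached -5.05 and ranged over 14.1 rather than 6.99 units. The range of Apoa2 therefore depends on the probe, and its correlation between the 2 probes was 0.964. Apoc1 was at 9.13, -0.40, 7.13, -1.12 and 8.43 in the wild-type sham samples, 2.85, -1.13, 2.70, 5.26 and 9.03 at 6 Gy and -1.61, 7.46, 8.68 and 8.28 at 8.8 Gy. Its Parp1-/- levels were 9.20, -0.32, 2.99, -1.35 and 0.26 after sham exposure and 7.37, 1.16, 8.52, 7.20 and -1.53 after 6 Gy. Wild-type 6 Gy replicates 1 and 3, which had Alb below 0, stood at 2.85 and 2.70 for Apoc1, above the other 9 samples with Alb below 0 (-1.61 to 1.16). Apoa1, Apob, Apoc3 and Apoh completed the list. The 6 genes spanned 6.99 to 12.62 units.

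The clotting and complement genes included the 3 fibrinogen chains Fga, Fgb and Fgg, which lie side by side on chromosome 3. Fgb was at 5.99, -1.22, 3.79, -0.61 and 5.16 in the wild-type sham samples, -0.67, 0.04, -0.99, 1.55 and 6.02 at 6 Gy and -0.53, 4.70, 4.49 and 5.77 at 8.8 Gy. In Parp1-/- mice it was 5.87, 0.17, 1.49, -0.28 and -0.23 without and 4.71, -0.97, 5.86, 4.99 and 0.34 with 6 Gy. Kng1, the gene of kininogen, the precursor of bradykinin, was at 7.39, -4.21, 4.93, -4.41 and 6.41, then -1.91, -3.73, -2.80, 2.63 and 7.12, and then -2.43, 5.88, 6.74 and 6.97 in the wild-type groups at 0, 6 and 8.8 Gy. Its Parp1-/- levels were 6.83, -3.44, 0.61, -2.52 and -1.19 without and 5.80, -4.68, 6.79, 6.13 and -3.72 with 6 Gy. Both genes had high and low samples in every group. Signal from the near copy Kng2 cannot be told apart from that of Kng1. C9, a subunit of the membrane attack complex, was well above background on 9 arrays. Its level was 0.00, -4.33, -3.32, -4.74 and -0.56 in the wild-type sham group and at 0.37, -4.03, -3.36, -3.92 and -4.04 in the Parp1-/- sham group. After 6 Gy it was at -4.13, -4.01, -4.39, -3.45 and -0.44 in wild-type mice and at -2.30, -4.78, 0.53, -0.76 and -4.20 in Parp1-/- mice, and after 8.8 Gy at -3.83, -1.94, -1.29 and -1.42. Its correlation with Alb, 0.89, was among the 3 lowest of the set, with Tat (0.81) and Cyp2e1 (0.91). F2 (prothrombin), Serpinc1 (antithrombin) and Vtn (vitronectin) were the other members of the list, whose 8 genes spanned 5.31 to 12.07 units.

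The widest range of the set belonged to a protease inhibitor. Serpina1a and Serpina1c encode near-identical forms of alpha-1-antitrypsin, so their probes may read each other's RNA. Serpina1a was at 10.26, -4.36, 8.0, -3.73 and 9.86 in wild-type sham samples, 0.16, -0.82, -0.64, 5.13 and 9.83 at 6 Gy and -1.94, 8.58, 9.34 and 8.85 at 8.8 Gy. In Parp1-/- mice it was 9.62, 0.33, 3.46, -2.51 and -3.38 without and 8.48, -3.27, 9.16, 8.82 and -0.70 with 6 Gy. Its range of 14.62 was the largest of the 33 under this choice of probe. Serpina1c was at 9.84, -4.16, 7.97, -1.63 and 9.78 in the wild-type sham group, 0.31, -0.76, -0.43, 4.97 and 9.58 at 6 Gy, -2.17, 8.44, 9.24 and 9.28 at 8.8 Gy, and 9.53, 0.28, 3.39, -2.41 and -2.67 and 8.46, -3.25, 9.07, 8.77 and -0.72 in the Parp1-/- groups at 0 and 6 Gy. Both genes were high and low in the same samples. Serpina3k, Itih3 and Itih4, the last 2 of them neighbours on chromosome 14, were the other members, and the 5 genes spanned 10.09 to 14.62 units.

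The 6 enzymes followed the secreted proteins, with a median range of 9.21 units, against 10.5 to 12.4 for the other 4 roles. Cyp2e1, a cytochrome P450 of ethanol metabolism, was at 8.0, 1.19, 6.48, 1.70 and 7.05 in the wild-type sham samples, 1.29, 2.47, 1.24, 1.52 and 6.76 at 6 Gy and 1.47, 6.14, 7.44 and 7.18 at 8.8 Gy. In Parp1-/- mice it was 7.72, 1.37, 4.21, 2.83 and 2.62 without and 6.11, 0.93, 6.81, 5.62 and 1.0 with 6 Gy. A dimmer probe of Cyp2e1 ranged over 10.32 rather than 7.07 units, with a correlation of 0.940 between the probes. Tat, tyrosine aminotransferase, a glucocorticoid-induced enzyme, had the smallest range of the 33, 3.73 units. It was at 3.61, -0.12, 1.64, 0.52 and 3.25 in the wild-type sham group, 1.24, 2.17, 1.68, 1.07 and 2.95 at 6 Gy and 1.40, 2.25, 2.93 and 3.53 at 8.8 Gy, and at 3.53, 0.97, 1.61, 0.69 and 0.45 and 2.27, 0.99, 2.52, 2.14 and 2.40 in the Parp1-/- groups at 0 and 6 Gy. Parp1-/- 6 Gy replicate 5, with Alb at -1.97, had Tat at 2.40, within the 2.14 to 2.52 of the 3 samples of its group with Alb above 7. Cps1 (urea cycle), Cyp3a11, Fabp1 and Bhmt were the other members, and the 6 genes spanned 3.73 to 12.71 units.

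Spread within groups was several times that of most genes. The pooled within-group SD of the members had a median of 4.46 (1.11 to 5.86) on the log2 scale, against a median of 0.533 over the 12984 tested genes that had a value on all 24 arrays. Between 94.0% and 99.97% of tested genes had a smaller SD than a given member. The share of a member's sum of squares that lay between the 5 groups had a median of 10.1% (5.95 to 16.3%), against 36.6% for the genes tested.

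**Figure D3:**
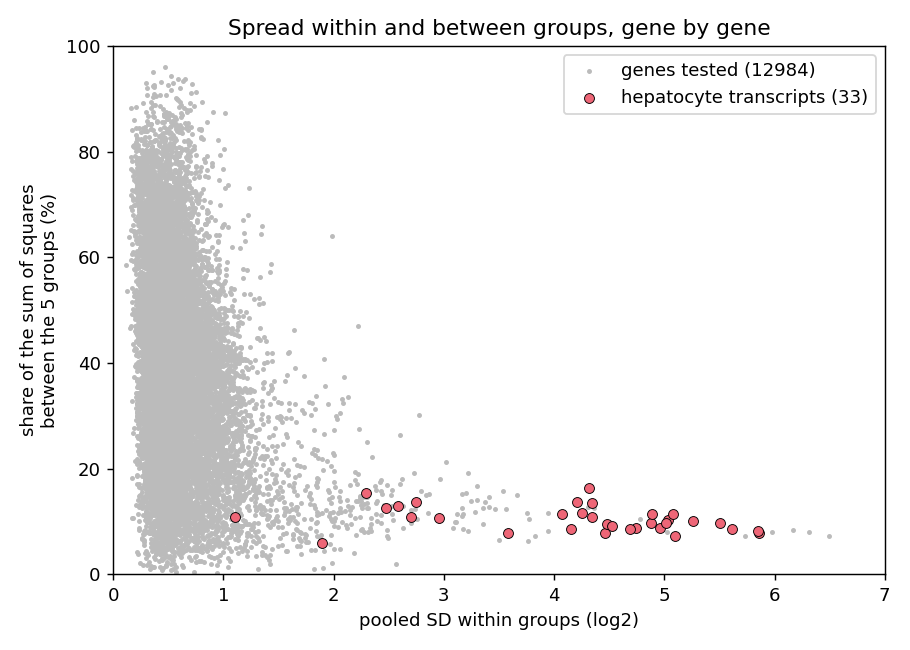
Pooled SD within groups (x axis, log2 units) against the share of the sum of squares between the 5 groups (y axis, percent) for 33 hepatocyte transcripts (red) and 12984 genes tested (grey), 1 point per gene. The red points lie to the right and low: their median SD is 4.46 and their median between-group share 10.1%.

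Whether radiation dose or Parp1 genotype changed the transcripts was asked in 8 comparisons with limma across all genes. The fit took in the 13051 genes that exceeded background clearly on 4 or more arrays of 1 or more groups, among them 17 of the 33 members (Alb, Trf, Hpx, Ambp, Ahsg, Apoa2, Apoc1, Apoc3, Apoh, Fga, Fgb, Serpina1a, Serpina1c, Itih4, Tat, Cyp2e1 and Bhmt). Alb, Hpx, Itih4 and Bhmt passed this filter only through the wild-type 6 Gy group, and Fga and Apoh only through the Parp1-/- 6 Gy group. Their differences that include that group are not independent of the filter. With limma, 0 of the 17 were called at an adjusted p under 0.05 in any of the 8 comparisons, and 0 had an unadjusted p under 0.05. The smallest adjusted p was 0.309, and without the filter 0 of 33 were called, with a smallest adjusted p of 0.226. The percentages of all tested genes called were 26.4% for 6 Gy against 0 Gy in wild-type mice, 16.1% for 8.8 Gy against 0 Gy, and 22.8% for 6 Gy against 0 Gy in Parp1-/- mice. They were 0.682% for Parp1-/- against wild type without exposure, 0.851% for the same at 6 Gy, and 6.08% for the difference between the genotypes' responses to 6 Gy. Parp1-/- 6 Gy against wild-type 8.8 Gy, and wild-type 8.8 Gy against 6 Gy, gave 0% (0 genes, though 268 and 2355 of those tested had an unadjusted p under 0.05). With slide as a fixed block, the genes called at 6 Gy and 8.8 Gy in wild-type mice and at 6 Gy in Parp1-/- mice numbered 0, 0 and 53, against 3445, 2099 and 2979 without a block. With scan day as a fixed block they numbered 15, 23 and 56. Without the 2 nearly equal arrays they numbered 3201, 1153 and 2397.

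The size of the differences was large and their errors were larger. Alb differed by -1.50 (SE 3.20, 95% interval -8.13 to 5.12) between wild-type 6 Gy and 0 Gy (limma adjusted p = 0.760), and by 2.20 (SE 3.39, -4.83 to 9.23) between 8.8 Gy and 0 Gy (limma adjusted p = 0.697). At 6 Gy in Parp1-/- mice the difference of Alb was 2.93 (SE 3.20, -3.70 to 9.55, limma adjusted p = 0.531). Parp1-/- against wild type without exposure differed by -2.71 (SE 3.20, limma adjusted p = 0.612). An effect of several log2 units in either direction therefore lies within these intervals. Leaving out 1 array at a time moved the difference of Alb between -3.46 and -0.02 for wild-type 6 Gy, between 0.25 and 4.77 for 8.8 Gy and between 1.76 and 4.88 for Parp1-/- 6 Gy. Without the 2 nearly equal arrays it was 1.57 for 8.8 Gy and 1.97 for Parp1-/- 6 Gy, and with normexp background correction it was 0.36 for 8.8 Gy. Over the 33 members the median difference was -1.62 for wild-type 6 Gy, 1.65 for 8.8 Gy and 2.12 for Parp1-/- 6 Gy, each against its own sham group, beside 0.04, 0.03 and -0.07 over all genes tested. It was -2.31 for Parp1-/- against wild-type sham, beside -0.05. With 1 array left out at a time, the first 3 medians ranged from -3.08 to -0.30, from 0.13 to 3.60 and from 1.15 to 3.77, and without the 2 nearly equal arrays the last 2 were 1.14 and 1.32. For 8.8 Gy the median was 0.09 with normexp correction and -0.04 with slide as a block. In 7 of the 8 comparisons all 33 signs were alike, and in the other, wild-type 6 Gy against 0 Gy, 32 were negative. Because the members move together from sample to sample, these signs amount to 1 observation per sample and not 33. The comparisons share control samples.

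Slides and scan days, which the scanner files record, did not separate high from low samples. Of 10 slides, 6 held at least 1 sample with Alb below 0 and 1 above 7, 2 held low samples without a high one and 2 held high samples only. On the scan day with 12 arrays, 5 samples lay below 0 and 6 above 7, and on the day with 6 arrays, 2 and 4. With scan day as a block, Alb at 6 Gy against 0 Gy in wild-type mice changed sign, from -1.50 to 1.85, and in Parp1-/- mice from 2.93 to -5.89. All wild-type sham arrays were scanned on 1 day and all irradiated wild-type arrays on another, so dose and day cannot be told apart within wild-type mice. The blocked wild-type value links these days only through Parp1-/- 6 Gy replicate 4. The blocked Parp1-/- value sets 6 Gy replicate 5 alone against sham replicates 1 and 2, the only such arrays scanned on the same day.

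Most members differed less from Alb than they differed between samples. On the arrays where both were well above background, the SD of a member minus Alb had a median of 0.770 over the other 32 members, against 2.24 for the level of the member itself. Gc (0.272), Cps1 (0.314), Serpina1c (0.347) and Rbp4 (0.349) kept closest to Alb. The SD of the difference was the smaller one for 30 of the 32 members, but not for Fga (1.63 against 1.51) or Tat (3.43 against 0.88). The scaling of an array cancels in such a difference. Hpx and Itih4, named here after their values were seen, stood apart. Hpx encodes hemopexin, which binds haem, and Itih4 an inter-alpha-trypsin inhibitor heavy chain, and both are known to rise in the acute-phase response of the liver. Hpx minus Alb was -2.21, -2.97 and -2.92 in wild-type sham replicates 1, 3 and 5. It was -1.06, -0.50, -1.29 and -0.42 in replicates 1, 3, 4 and 5 at 6 Gy and -1.43, -1.43 and -1.25 in replicates 2 to 4 at 8.8 Gy. The 7 irradiated samples were all above the 3 sham samples, with a gap of 0.78. Itih4 minus Alb was -2.48, -3.17 and -3.23 in the same sham samples, -0.23, -0.49, -1.24 and -0.32 at 6 Gy and -1.29, -1.43 and -1.26 at 8.8 Gy. Here too the irradiated and the sham samples did not overlap, with a gap of 1.05. These were 2 of the 32 members measured on at least 2 arrays of each side, while 1.55% of 12525 tested genes stood higher without overlap and 0.104% lower. The 32 include members that were not tested, which these shares leave out. Without wild-type 8.8 Gy replicate 2 the same 2 members stood apart, beside 1.67% of genes higher and 0.112% lower.

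In Parp1-/- mice Hpx minus Alb was -1.77 and -3.24 in sham replicates 1 and 3, and -1.62, -1.07 and -0.61 in 6 Gy replicates 1, 3 and 4. Itih4 minus Alb was -2.11 and -2.84 after sham exposure and -1.30, -0.98 and -0.68 after 6 Gy. The groups again did not overlap, by 0.16 for Hpx and 0.81 for Itih4, and without Parp1-/- 6 Gy replicate 1 by 0.71 and 1.12. Of 26 members measured, 4 were higher without overlap (Hpx, Kng1, Vtn and Itih4) and 7 were lower (Ttr, Apoa2, Serpinc1, Tat, Cyp3a11, Cyp2e1 and Fabp1). Among 10052 tested genes, 0.0199% were higher and 12.9% lower. The 0.0199% stands for 2 genes, Hpx and Itih4 themselves, and Kng1 and Vtn were not among the tested genes. Without Parp1-/- 6 Gy replicate 1 Fgg, also not tested, joined the first group, which made 5, and the same 7 were lower. The higher share was then 0.0208% of 9601 tested genes, again Hpx and Itih4, and 15.2% were lower. The higher shares are therefore no background for these members. With 2 sham arrays, and with 1 more sham array of low Alb entering for genes that blood also expresses, the shares are also not evenly matched. When the level of Alb was entered in the limma fit as a covariate, an alternative added after seeing the data, neither gene was called. The differences were then 0.77 (SE 0.54, adjusted p = 0.285) for Hpx and 1.08 (SE 0.62, adjusted p = 0.180) for Itih4 at 6 Gy against 0 Gy in wild-type mice. Hpx and Itih4 passed the filter only through that wild-type 6 Gy group.

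**Figure D4:**
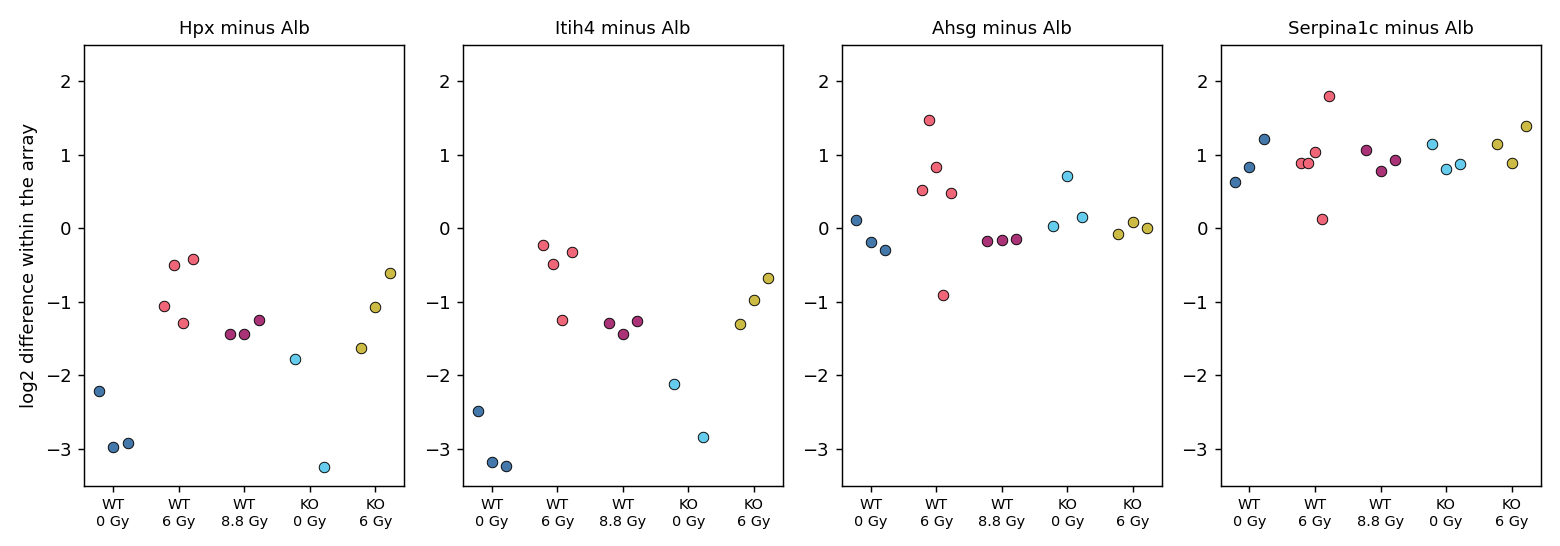
Difference in log2 level between Hpx, Itih4, Ahsg or Serpina1c and Alb within an array (y axis), by group (x axis; WT, wild type; KO, Parp1-/-), for the arrays on which both were well above background, 1 point per sample. Hpx and Itih4 are at or below -2.21 and -2.48 in the wild-type sham samples and at or above -1.43 in the irradiated wild-type samples, whereas Ahsg and Serpina1c overlap.

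The same fit called 3 of 16 members lower at 6 Gy than at 0 Gy in wild-type mice, beside 32.0% of all genes. They were Apoh, the phospholipid-binding apolipoprotein H (-1.34, SE 0.48, limma adjusted p = 0.0388), Apoa2 (-1.19, SE 0.45, limma adjusted p = 0.0475) and Cyp2e1 (-1.53, SE 0.59, limma adjusted p = 0.0499). With 1 array left out at a time, Apoh was no longer called in 7 of 24 fits, Apoa2 in 17 and Cyp2e1 in 19, at adjusted p-values of up to 0.128, 0.151 and 0.176. Without the 2 nearly equal arrays only Apoh of the 3 was called (limma adjusted p = 0.0475), and with slide or scan day as a block none was (0.418 to 0.576). Apoh was also called higher in Parp1-/- than in wild-type mice at 6 Gy, by 1.57 (SE 0.48, limma adjusted p = 0.0442), beside 9.72% of all genes. It passed the filter only through the Parp1-/- 6 Gy group, where it was well above background on 4 arrays. In each of the other groups it was so on 2 or 3. The filter thus favoured a high level in that group, and the call is not independent of it. That call was lost in 12 of the 24 fits with 1 array left out, and with slide (limma adjusted p = 0.122) or scan day (0.117) as a block. The difference between the genotypes' responses for Apoh, which includes the same Parp1-/- 6 Gy group, was 2.18 (SE 0.70, limma adjusted p = 0.0501), just short of the threshold. Without the 2 nearly equal arrays 1 of the 16 members was called in that comparison, beside 1698 of all genes tested. In the other 6 comparisons the fit with the covariate called 0 of the 16 members (0 or 1 had an unadjusted p under 0.05), beside 22.6% of all genes for wild-type 8.8 Gy and 26.4% for Parp1-/- 6 Gy against sham. That share was 1.19% for the genotypes without exposure, 0% for Parp1-/- 6 Gy against wild-type 8.8 Gy, 3.86% for 8.8 against 6 Gy and 9.35% for the difference between the responses. Without the covariate Apoh was at 6.71, -4.24, 4.33, -3.39 and 5.46 in the wild-type sham samples and at -3.83, -3.78, -3.05, 1.19 and 5.87 at 6 Gy, and it was well above background on only 2 of the latter 5. Its Parp1-/- levels were 6.24, -2.78, -0.18, -3.94 and -3.95 without and 4.65, -2.18, 5.73, 4.63 and -1.95 with 6 Gy. Values near background enter the covariate fit, and their part in these calls was not tested.

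Hepatocyte genes outside the set behaved alike in part. Of 40 other hepatocyte genes 21 were tested, and with limma 0 were called in any of the 8 comparisons (0 to 2 of them a comparison had an unadjusted p under 0.05), with median differences of -0.58, 0.77 and 1.20 for wild-type 6 Gy, 8.8 Gy and Parp1-/- 6 Gy against their sham groups. With 1 array left out, up to 1 of the 21 was called for wild-type 6 Gy, for Parp1-/- 6 Gy and for the difference between the responses. All genes called then numbered 2271 to 3992, 2359 to 3311 and 24 to 1448. The fit with Alb as a covariate called 3 of the 21 for wild-type 6 Gy (1 higher and 2 lower, beside 32.0% of all genes), 1 for Parp1-/- 6 Gy, lower (beside 26.4%), and 1 for Parp1-/- against wild-type sham, higher (beside 1.19%). Without the 2 nearly equal arrays the last 2 calls were lost, and with slide or scan day as a block all 5 were. All genes called in these comparisons numbered 0, 79 and 3 with slide and 41, 99 and 3 with scan day as a block. Without a block they numbered 4170, 3450 and 155. The urea cycle gene Ass1 ran from 1.42 to 6.43. Slc10a1, the bile acid transporter of hepatocytes, did not follow: its probe read at least 9.40 on every array, also on those with Alb below 0. The 10 genes most like Alb over the 24 arrays, among 12967, had correlations of 0.980 to 0.991 and included Mup9, Mup17, Mug1, Mup18, Mup19, Mup5, Serpina1d, Mup4 and Slc27a5. The Mup genes encode major urinary proteins, are near-identical copies and cannot be told apart with certainty by these probes.

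Acute-phase genes of the liver were followed because several of them are hepatocyte products too, though blood cells also express some. Saa1, serum amyloid A, was at 3.90, 1.55, 2.14, 2.05 and 3.10 in the wild-type sham samples, 5.97, 3.13, 5.52, 7.43 and 8.98 at 6 Gy and 2.95, 7.60, 8.79 and 8.49 at 8.8 Gy. It was higher by 3.66 (SE 1.29, limma adjusted p = 0.0405) and by 4.41 (SE 1.37, limma adjusted p = 0.0317). The difference in Parp1-/- mice was 3.48 (SE 1.29, limma adjusted p = 0.0559). Lcn2, lipocalin 2, which neutrophils also make, was higher by 1.72 at 8.8 Gy (SE 0.40, limma adjusted p = 0.00567). These were the called genes of the 7 tested in a list of 12: 1 at 6 Gy (beside 26.4% of all genes), 2 at 8.8 Gy (beside 16.1%) and 0 in the other 6 comparisons, where up to 3 had an unadjusted p under 0.05. The call of Saa1 at 6 Gy was lost in 8 of 24 fits with 1 array left out (wild-type sham replicates 2 to 5 and 6 Gy replicates 1, 3, 4 and 5), at adjusted p-values of up to 0.0931. At 8.8 Gy it was lost in 6 (sham replicates 2 to 4 and 8.8 Gy replicates 2 to 4), likewise up to 0.0931. Without the 2 nearly equal arrays Saa1 had a limma adjusted p of 0.0517 at 6 Gy and 0.0939 at 8.8 Gy, and Lcn2 kept its call (1.61, SE 0.44, limma adjusted p = 0.0283). With slide or scan day as a block neither gene was called (limma adjusted p of 0.541 to 0.675). All genes called at 6 Gy and 8.8 Gy then numbered 0 and 0 with slide and 15 and 23 with scan day. The fit with Alb as a covariate called 3 of the 7 higher at 6 Gy (Saa1, Hp and Mt1), 3 at 8.8 Gy (Saa1, Hp and Lcn2) and 2 at 6 Gy in Parp1-/- mice, beside 32.0%, 22.6% and 26.4% of all genes. The calls in Parp1-/- mice were Saa1, by 2.52 (SE 0.78, limma adjusted p = 0.0198), and Hp, haptoglobin, which binds haemoglobin, by 1.05 (SE 0.27, limma adjusted p = 0.00566). Leaving out Parp1-/- sham replicate 2 or 6 Gy replicate 2 ended the first of these, and none of these 8 calls held with slide or scan day as a block. Few calls of any gene held. With slide as a block 0, 0 and 79 genes were called in these 3 comparisons, and with scan day 41, 47 and 99. Without a block they numbered 4170, 2950 and 3450. Relative to Alb, 9 of the 12 stood higher without overlap in irradiated than in sham wild-type samples, beside 1.55% of tested genes. They were Saa1, Saa2, Hp, Orm1, Orm2, Lbp, Apcs, Mt1 and Mt2. Arrays counted only where the gene and Alb were both well above background. Sham replicates 2 and 4, with Alb at -3.94 and -4.53, and 8.8 Gy replicate 1, at -2.23, were therefore left out. Only 7 of the 12 were among the tested genes, so the list and this share are not evenly matched. Saa1 minus Alb, for one, was at most -5.0 in sham replicates 1, 3 and 5 and at least 0.14 in the irradiated samples counted. It was 4.78 to 6.98 in 6 Gy replicates 1 to 3, with Alb below 0, and 0.14 to 2.60 in the others. Low-Alb samples thus entered on the irradiated side alone. They raise this difference for genes well above background at low Alb, such as Saa1, Hp and Mt1. In the sham samples left out, Saa1 itself was at 1.55 and 2.05. In the Parp1-/- groups all 5 genes measured overlapped (Saa1, Hp, Mt1, Mt2 and Lcn2). Sham replicates 2 and 3, with Alb at -0.53 and 2.52, had Hp minus Alb at 6.43 and 4.57. Sham replicate 1, with Alb at 8.38, had Hp minus Alb at -0.29 and Saa1 minus Alb at -1.11. Both, and Lcn2, lay below the 3 irradiated samples there, while Mt1 and Mt2 did not. The other genes of the list were measured on sham replicate 1 alone and were not counted. The level of Saa1 in Parp1-/- sham replicate 1 was 7.27, above the other 4 samples of its group (1.21 to 3.07).

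Markers of other cell types were taken in the same way. The mean of 9 Kupffer cell (liver macrophage) markers ranged from -2.88 to 2.96 over the arrays. One of them, Clec4f, a lectin made by Kupffer cells, lay between -1.78 and 1.17 on the 11 arrays with Alb above 7 and between -5.09 and -2.54 on the other 13. Clec4f was thus high on the same arrays as Alb, without overlap. This was not particular to Clec4f. Apoa4, outside the set, lay between -0.81 and 2.18 on the former arrays and between -5.10 and -1.33 on the latter. Fabp2, also outside the set, lay between 0.56 and 4.02 and between -4.35 and -0.36. Vsig4 and Cd5l, which other macrophages also make, overlapped between these arrays and the rest. The mean of 7 bile duct markers stayed between -4.16 and -2.08, with Sox9 never well above background, although Krt19 reached 3.19 in wild-type 8.8 Gy replicate 4. Means of the liver sinusoid (9 genes) and stellate cell (8 genes) lists stayed within -0.84 to 0.57 and -2.65 to -0.49. The mean of the enterocyte list (6 genes) stayed within -4.35 to -1.24. Means of the exocrine pancreas, kidney tubule, skeletal muscle, lung epithelium, mesothelium and adipocyte lists were at most -0.279. The mean of 11 heart muscle markers was highest, at 3.57, in Parp1-/- 6 Gy replicate 3, where Myh6 was at 7.22 and Alb at 8.18. It was 1.63 in wild-type 6 Gy replicate 1, where Myh6 was at 5.64 and Alb at -0.58. Heart transcripts and hepatocyte transcripts were thus not high in the same samples throughout. Myl7, an atrial marker, was never well above background. Within the 11 samples below 0 and the 11 above 7 the relation of Alb to 20 measures of the array (marker list means, the share of probes well above background and the 75th percentile) gave 0 of 40 permutation tests with an adjusted p under 0.05. The smallest adjusted p was 0.119 for Pearson's r and 0.0964 for Spearman's rho (two-sided permutation tests). No correlation of Alb with these measures over all 24 samples is given, because Alb falls into 2 ranges.

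**Figure D5:**
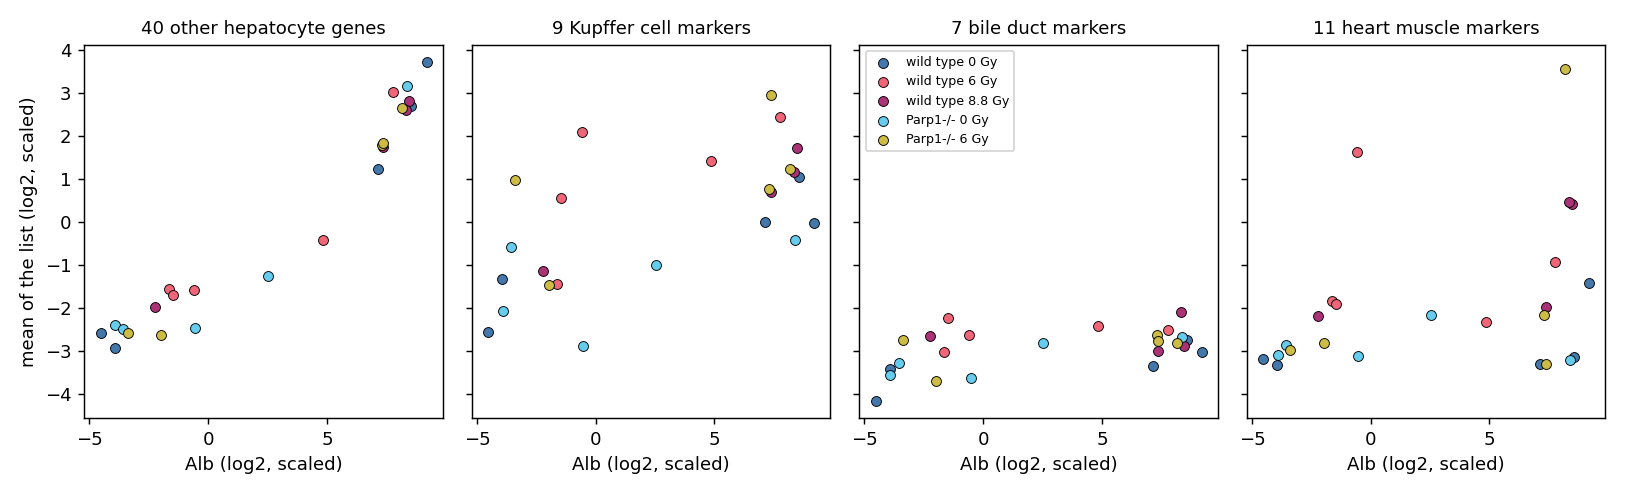
Mean level of 4 marker lists (y axis) against the level of Alb (x axis) on 24 arrays, coloured by group, both as log2 signal minus the array's 75th percentile. The 40 other hepatocyte genes rise with Alb, the 7 bile duct markers stay between -4.16 and -2.08, and the highest heart muscle mean, 3.57, belongs to a Parp1-/- 6 Gy sample with Alb at 8.18.

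Different probes of 1 gene mostly agreed. Of the 12 members with more than 1 probe, 9 had all correlations between probes at or above 0.940. For Apoc3 and Bhmt a probe named for another transcript of the gene ran against the chosen probe, with a correlation of -0.498 and -0.385 over the 24 arrays. For Apoc3 that probe was well above background on all arrays and stayed between -1.51 and 1.01, while the chosen probe ran from -4.20 to 8.42. A second probe of Fga gave a correlation of 0.443 over 20 arrays. These 3 probes were not those used above.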

How the data were processed

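Whole-blood RNA of 24 mice was measured on 1-colour Agilent arrays. The deposited scanner files hold spot intensities, made with Agilent Feature Extraction 11.5.1, per the file headers and the submitters' processing notes, with background subtracted within each array. The authors' table of log2 values, used as an alternative, equals the log2 intensity plus 1 constant per array (SD of the difference at most 0.0717 over 10189 probes, 11 of them of these genes). Its column medians were 7.62 to 8.09, and where its constants come from is not given here. Processed signals were scaled to each array's 75th percentile in log2, without control and outlier spots. Probes were named through RefSeq accessions where these matched (27508 of 39429), and otherwise by the file.

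Genes were fitted in limma 3.58.1 (R 4.3.3) with 5 group means, with Benjamini-Hochberg adjustment over all genes tested. The procedure was tested on simulated data. Relations with Alb used permutation tests (100000 resamples, scipy 1.17.1). The gene set, the lists and the tests were chosen with earlier results of these data known. Genes described one by one were Alb, the 2 of each role with the highest mean level, any called, the 3 least correlated with Alb, the 10 other genes most like Alb, and the highest or called genes of 2 further liver lists. One gene that this rule names is not reported here. Replicate numbers did not pair samples: residuals of same-numbered samples correlated with a median of -0.045 (46 pairs), against -0.001 for other pairs. The p-values rest on the spread between arrays, with each array taken as a separate mouse, in the main fits also the 2 nearly equal ones. They do not separate dose from scan day in wild-type mice. The number of arrays limits the precision.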

Additional observations from a re-analysis of the deposited data

Results flagged for a closer look

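Of 65 sets of samples checked (12 transcripts and the median of the 33, in 5 groups), 15 held a sample whose gap to its nearest neighbour, as a share of the group's range, passed Dixon's 95% critical value (0.829 for 4 samples, 0.71 for 5). The transcripts were chosen for being high in some samples and low in others, and Alb falls into 2 ranges, so these gaps are a description and the usual chance rate of about 1 in 20 does not apply. The sets are also not independent, because the transcripts move together. Wild-type 8.8 Gy replicate 1 stood below the other 3 samples of its group, with a gap share of 0.897 for Alb, 0.9 for Ahsg, 0.881 for Apoc1, 0.884 for Kng1, 0.933 for Serpina1a, 0.927 for Serpina1c and 0.876 for the median of the 33. Parp1-/- sham replicate 1 stood above the rest of its group, with 0.779 for Trf, 0.724 for Apoa2, 0.712 for Fgb and 0.846 for C9. Wild-type 6 Gy replicate 5 stood above its group, with 0.715 for Apoa2, 0.777 for Cyp2e1 and 0.762 for C9. Parp1-/- 6 Gy replicate 2 stood below its group for Tat alone (0.752).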

How the results depend on the processing

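Under other settings (scaling, background, filters, probe choice, the authors' table, blocks, each array left out) limma called 0 of the members in the 8 comparisons; over them the smallest adjusted p was 0.1199, without wild-type 6 Gy replicate 5. Leaving out the 2 nearly equal arrays, singly or together, changed none of these counts. With the replicate block, an unsupported pairing, 0 were called (smallest adjusted p 0.3194) and the median difference stayed at -1.62 for wild-type 6 Gy. The covariate Alb, added after seeing the data, gave calls that slide or scan day as a block removed, 3 for wild-type 6 Gy against 0 Gy and 1 for Parp1-/- against wild type at 6 Gy. Those blocks removed most calls of any gene too. In the first comparison 4170 genes became 0 with slide and 41 with scan day, and in the second 1269 became 119 and 73.

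Signs depended on slide and scan day, which are partly confounded with group. With scan day as a block, Alb differed by 1.85 (wild-type 6 Gy against 0 Gy), -5.89 (Parp1-/- 6 Gy against 0 Gy), 9.99 (Parp1-/- against wild-type sham) and -7.74 (difference of the responses). With slide as a block, the last 3 were -5.89, 4.07 and -4.48, and Parp1-/- against wild type at 6 Gy was -0.41. The median of the members then became -4.76 under either block for Parp1-/- 6 Gy against 0 Gy. For the sham genotypes it became 2.97 with slide and 7.83 with scan day, and for the difference of the responses -3.08 and -5.79. None of these adjusted p-values for Alb was under 0.05. The blocked values rest on few arrays. Only Parp1-/- 6 Gy replicate 5 shared a slide or a scan day with Parp1-/- sham arrays. Under either block, -5.89 therefore sets its Alb of -1.97 against 8.38 and -0.53 in sham replicates 1 and 2. The equal values with slide and with scan day are the same contrast and not separate results. Wild-type sham arrays shared a scan day with other groups only through Parp1-/- 6 Gy replicate 4. Whether slide or scan day itself shifted the levels was not tested.

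The pooled within-group SD of Alb was 5.51, 3.91 with normexp correction, and 5.51 to 5.63 under the other scalings and spot or probe rules. That of the median of the 33 was 4.54, and 2.85 with normexp. The gap of Itih4 minus Alb in Parp1-/- mice, 0.81, became 0.14 with normexp and 1.28 with the median of the other members in place of Alb. Without the Parp1-/- 6 Gy replicate 1 array it was 1.12. With the other probe it was 1.43, but only 1 sham array was measured, so that value does not compare groups. That of Hpx, 0.16, became 0.71 without that array. In wild-type mice the gaps stayed at 0.31 to 0.78 for Hpx and 0.63 to 1.05 for Itih4. Levels below background are bounds, so ranges and SDs of members not detected on every array depend on the background correction.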
